A study of Mus musculus with 32 samples.

Results

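The genes described are enzymes of the methionine cycle and of its branches in mouse liver, chosen by name. Earlier results of these data were known when they were chosen. The list holds 10 genes, of which 9 were analysed among 18194 genes on the array: Mat1a, Gnmt, Pemt, Nnmt, Ahcy, Bhmt, Shmt1, Cbs and Cth. Mat2a is not analysed here, so the balance of Mat1a to Mat2a is not given. Each gene was represented by the probe set, among those listed with that gene alone, whose mean over 32 arrays was highest on the log2 scale. Levels are linear array intensities, and probe sets differ in how brightly they hybridise, so a level was compared only between samples of the same gene.

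All animals were CD-1 mice. Unoperated liver of 10-week-old females (time 0) gave 2 arrays. Liver of such females after removal of 2/3 of the organ, together with the gallbladder, under ketamine and xylazine with buprenorphine afterwards, gave 2 arrays at each of 9 times: early (1, 2 and 6 h), in the middle (12, 18, 24 and 30 h) and late (48 and 72 h). Embryonic liver gave 2 arrays at each of 6 stages, counted in days post conception (dpc): daily from 10.5 to 14.5 dpc and again at 16.5 dpc. Every array held RNA pooled from at least 3 tissues of different animals. Beyond that the labels do not say how the 2 arrays of a group differ in origin. A p-value here reflects the variation between arrays of a group, part or all of which may be technical. No sham-operated group was among the samples, so the operation and the loss of tissue cannot be told apart.

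Methionine adenosyltransferase transfers the adenosyl group of ATP to methionine and so makes S-adenosylmethionine, the methyl donor of the cell. Mat1a encodes the form of the enzyme that marks the mature hepatocyte. Methyltransferases such as Gnmt, Pemt and Nnmt spend the donor on glycine, phosphatidylethanolamine and nicotinamide and leave S-adenosylhomocysteine, which Ahcy splits into homocysteine and adenosine. Homocysteine is then methylated back to methionine, by Bhmt with betaine or by methionine synthase with a folate whose carbon comes largely from serine through enzymes such as Shmt1, or is passed by Cbs and Cth to cysteine.

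RefSeq promoter windows of build GRCm38.p6, from 250 bases before to 50 bases after an annotated start, were at hand for 6 of the 9 genes, and are shown because the genes behind them ranged from nearly silent to well expressed in the embryo. Pemt has 2 windows, of which the first is shown. They lie on the minus strand at chr17:46729116-46729415 (Gnmt), chr13:93637709-93638008 (Bhmt), chr11:60040139-60040438 (Pemt), chr17:31637156-31637455 (Cbs), chr2:155074448-155074747 (Ahcy) and chr11:60811216-60811515 (Shmt1). Each covers the upstream flank and the first bases of the transcript. Capitals mark matches on either strand to the CCAAT box, to the GC box with the letters GGGCGG, to the TATA box with the letters TATAAA, or to the E-box with the letters CACGTG, and adjoining capitals in Shmt1 hold 2 overlapping GC boxes.
Gnmt: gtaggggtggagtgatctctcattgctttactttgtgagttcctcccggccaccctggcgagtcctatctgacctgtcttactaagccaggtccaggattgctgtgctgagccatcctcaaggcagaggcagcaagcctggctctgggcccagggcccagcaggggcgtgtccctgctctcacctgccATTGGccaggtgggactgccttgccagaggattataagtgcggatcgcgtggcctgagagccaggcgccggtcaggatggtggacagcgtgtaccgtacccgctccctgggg
Bhmt: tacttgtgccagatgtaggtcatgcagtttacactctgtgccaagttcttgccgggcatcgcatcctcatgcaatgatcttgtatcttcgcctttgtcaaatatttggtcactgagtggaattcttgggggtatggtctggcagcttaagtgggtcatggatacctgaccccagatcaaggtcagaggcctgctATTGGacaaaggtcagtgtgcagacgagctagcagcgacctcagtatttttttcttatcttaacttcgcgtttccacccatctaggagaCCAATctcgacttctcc
Pemt: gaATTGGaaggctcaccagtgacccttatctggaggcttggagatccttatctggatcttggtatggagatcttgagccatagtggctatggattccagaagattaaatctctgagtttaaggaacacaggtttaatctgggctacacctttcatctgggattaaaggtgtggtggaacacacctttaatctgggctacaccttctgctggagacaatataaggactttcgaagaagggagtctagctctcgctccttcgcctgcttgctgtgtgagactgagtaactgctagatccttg
Cbs: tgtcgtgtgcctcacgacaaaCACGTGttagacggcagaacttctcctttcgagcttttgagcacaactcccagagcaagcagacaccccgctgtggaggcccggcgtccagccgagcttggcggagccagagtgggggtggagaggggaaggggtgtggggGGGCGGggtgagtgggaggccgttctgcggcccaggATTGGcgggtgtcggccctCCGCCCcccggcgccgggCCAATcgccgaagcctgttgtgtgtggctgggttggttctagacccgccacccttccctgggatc
Ahcy: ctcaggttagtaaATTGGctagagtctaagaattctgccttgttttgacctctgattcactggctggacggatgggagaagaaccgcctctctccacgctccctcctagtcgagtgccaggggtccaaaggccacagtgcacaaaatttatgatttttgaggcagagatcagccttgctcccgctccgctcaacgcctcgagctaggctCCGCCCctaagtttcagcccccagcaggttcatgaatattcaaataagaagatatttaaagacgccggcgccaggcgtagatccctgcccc
Shmt1: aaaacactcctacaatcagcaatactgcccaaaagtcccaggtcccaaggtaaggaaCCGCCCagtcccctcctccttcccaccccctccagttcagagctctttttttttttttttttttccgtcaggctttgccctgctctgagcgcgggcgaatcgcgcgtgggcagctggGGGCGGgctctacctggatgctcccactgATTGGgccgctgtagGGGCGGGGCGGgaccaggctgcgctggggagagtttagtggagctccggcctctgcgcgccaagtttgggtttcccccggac

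All 6 windows shown held CCAAT, and the second of Pemt did not; 37.4% of 32851 windows of the same length held it. In Gnmt, Bhmt, Cbs and Shmt1 a match began 62, 56, 52 and 47 bases before the start, each on the opposite strand, while those of Ahcy and Pemt began 237 and 248 bases before it. A GC box, held by 35.7% of all windows, was in those of Cbs, Ahcy and Shmt1 and not in those of Gnmt, Bhmt and Pemt. The E-box, held by 7.15%, was in the window of Cbs, and the TATA box, held by 13.6%, was in none of the 6. CpG dinucleotides numbered 3 in Pemt, 8 in Bhmt, 11 in Gnmt, 13 in Ahcy, 17 in Shmt1 and 22 in Cbs, against a median of 7 over all windows. TTCNNNGAA (STAT, 8.30% of windows) matched in the window of Pemt, from 23 to 15 bases before the start, and TGANTCA (AP-1, 7.81%) in that of Ahcy. TTGCNNAA (C/EBP, 10.8%) and CAAAGTCCA (HNF4, 0.475%) had no match in these windows. A match describes letters and is no evidence of binding.

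The arrays were alike in their medians, which ran from 69.7 to 79.5, but not at their bright end. Mat1a, Gnmt, Bhmt and Ahcy lie there in adult liver. The 99th percentile was 1325 on the first time 0 array and 1134 on the second 48 h array, against 2285 on the second time 0 array and 1844 to 3066 on the other arrays after hepatectomy. The second 48 h array also had the highest ratio of 3′ to 5′ probe sets of Actb, 2.42 on the log2 scale, with 1.22 for Gapdh. The second 2 h, the second 12 h and the first 10.5 dpc arrays had Gapdh ratios of 0.32, 0.30 and 1.49, and the other 28 arrays lay between -0.44 and 0.20. Among the 9 enzyme genes, 8 read lower on the first time 0 array than on the second, with a median difference of -0.54 on the log2 scale, and all 9 read higher on the first 48 h array than on the second, by a median of 1.31. Every comparison with time 0 uses both time 0 arrays, and calls that were lost without one of them are given beside the result for the genes described in full.

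The labelled tissue was checked against its markers. Alb, the main plasma protein of the hepatocyte, read 8205 and 7464 at time 0, and Afp, its fetal counterpart, read 57.9 and 48.5 there against 2407 to 4556 in the embryo. Of 8 hepatocyte markers 0 were called in any of the 3 phases after hepatectomy, where 0.253% to 2.54% of all genes were called in either direction. In the embryo against time 0, 6 of 8 were lowered, and 4 of 4 hepatoblast markers and 7 of 8 erythroid markers were raised. Of all genes 30.5% were raised and 24.6% lowered there. The summed erythroid level was 1882 to 19322 against 551 to 611 at time 0. In whole tissue, fewer cells of a type and less RNA per cell cannot be told apart.

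Nnmt, which methylates nicotinamide with the cycle's donor, rose after hepatectomy and stayed high to the last time. It read 80.6 and 50.9 on the first and second array of time 0, then 347.6 and 206.9 after 1 h and 210.2 and 175.2 after 2 h. By 6 h the arrays gave 1423 and 837. All arrays from 1 h on were above both time 0 arrays. The 12 h arrays gave 1955 and 839.9, the 18 h arrays 3806 and 2083, the 24 h arrays 621.2 and 2596, and the 30 h arrays 762.7 and 932.5. The 2 arrays of 24 h differed by 2.04 on the log2 scale, the widest pair of any adult time. At 48 h it read 2884 and 854.7, and at 72 h 1489 and 2438.

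On the log2(intensity + 16) scale, on which all changes are given and on which those of dim genes are understated, Nnmt was 3.79 ± 0.59 (SE) higher at 6 h than at time 0 (limma, Benjamini-Hochberg adjusted p = 7.28e-04). At 18 h the difference was 5.14 ± 0.59, or 35.3-fold (limma, adjusted p = 1.36e-05). It passed the test at each of the 7 times from 6 h to 72 h, with differences of 3.42 to 5.14, and not at 1 h (1.83, adjusted p = 0.303) or 2 h (1.37, adjusted p = 0.718). Over 1 to 6 h it was 2.33 higher (adjusted p = 0.0149), over 12 to 30 h 4.14 higher (1.67e-05) and over 48 to 72 h 4.44 higher (4.91e-05).

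Without either time 0 array the call at 1 to 6 h was lost (2.59 without the first, 2.06 without the second). The call at 24 h was lost without its second array (2.99), and that at 30 h without its first (3.56), its second (3.28) or the second time 0 array (3.15). The calls at 6, 12, 18, 48 and 72 h and over 12 to 30 h and 48 to 72 h held without any single array, and the difference at 48 h was 5.17 without the second 48 h array. With array weights the call at 48 h was lost (adjusted p = 0.106), and in a fit of only the arrays compared those at 6, 12, 24, 30 and 48 h and over 48 to 72 h were lost.

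Among 6 neutrophil markers in the same livers, S100a8 and S100a9 were raised in each phase, and the other 4 were not called. At 1, 24 and 30 h 0 of the 6 were called. The summed level of the list was 742 to 2001 after hepatectomy against 734 and 762 at time 0. Of all genes 0.693%, 2.54% and 1.83% were raised in the 3 phases, and 0.253%, 2.1% and 0.588% lowered. The stellate and mesenchyme list, 7 genes, summed to 1324 to 2834 against 1503 and 1850. Its sums were highest at 1 h (2496 and 2505) and 72 h (2489 and 2834). In it 0 were raised in any phase and 2 were lowered over 12 to 30 h, Col3a1 (-0.80) and Pdgfrb (-0.66). At single times 1 was raised at 72 h, and 2, 3 and 2 were lowered at 6, 12 and 18 h. Of 6 macrophage markers 1 was raised over 12 to 30 h, Marco (0.97), where the median change of the 6 was -0.06. Over 48 to 72 h 2 were raised, Marco (1.58) and Adgre1 (0.58). The list summed to 3894 and 3695 at 72 h against 2696 and 2716 at time 0. By single time 1 was lowered at 12 h, 1 was raised and 2 were lowered at 18 h, and 2 were raised at 72 h. The shares of all genes lowered were 4.57% at 12 h and 3.24% at 18 h. Those raised were 4.41% at 18 h and 2.61% at 72 h. In the neutrophil and stellate lists the dimmest marker at time 0 was Col1a1, at 26.0 and 41.4. Their part in the rise of Nnmt was not tested.

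Among the 14966 genes whose highest group mean was above 74.6, the median of all values, 22 had a Pearson correlation over 0.9 with Nnmt over the 10 adult group means, which share arrays and dissections. The 5 highest were Skor1 (0.947), Mt2 (0.943), Pi4kb (0.932), Icos (0.931) and Litaf (0.925), and no p is given because genes were ranked by this value. Mt2, a metal-binding metallothionein, had a mean of 1607 at time 0, 6429 at 6 h and 8408 at 18 h. Skor1 was dim, at 0.54 at time 0 and 98.3 at 48 h.

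**Figure D1:**
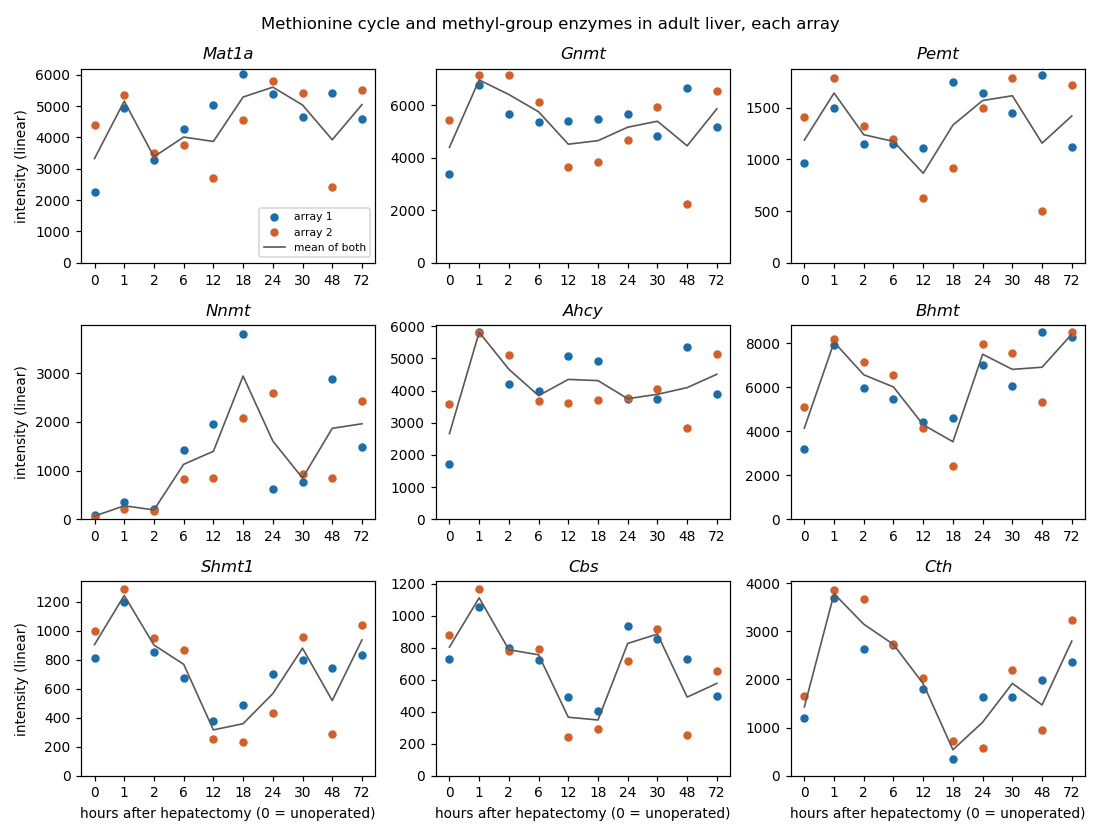
Intensity (linear, y axis) of the 9 enzyme genes against hours after hepatectomy, with both arrays of each group as points and their mean as a line. Nnmt lies at 50.9 to 80.6 at time 0 and at 621.2 to 3806 from 6 h on. Shmt1 and Cbs dip at 12 and 18 h and Cth at 18 h, while Mat1a lies above both time 0 arrays at 1, 18, 24, 30 and 72 h.

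The other genes were called at few times, and in the opposite direction. Of the 9 genes 0 were called at 1 h, where 0.396% of all genes were raised and 0.0769% lowered. At 2 h 0 were called, where the shares were 0.418% and 0.126%. That a gene was not called does not show that it was unchanged. At 6 h 1 was raised, against 1.01% of all genes raised and 0.967% lowered. At 12 h 1 was raised and 2 were lowered, against 4.18% and 4.57%. At 18 h 1 was raised and 3 were lowered, against 4.41% and 3.24%. From 24 h on 1 was raised and 0 lowered at each time, where the shares of all genes raised and lowered were 0.61% and 0.561% (24 h), 0.231% and 0.0879% (30 h), 0.605% and 0.824% (48 h), and 2.61% and 0.297% (72 h). The gene raised was Nnmt in every case. By phase, Nnmt alone of the 9 was called, raised each time, against 0.693% of all genes raised and 0.253% lowered over 1 to 6 h, 2.54% and 2.1% over 12 to 30 h, and 1.83% and 0.588% over 48 to 72 h.

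Mat1a, the source of the methyl donor, was not called at any time after hepatectomy. It read 2268 and 4386 at time 0, 4954 and 5361 after 1 h, 3267 and 3500 after 2 h, and 4271 and 3753 after 6 h. The 12 h arrays gave 5041 and 2704, the 18 h arrays 6011 and 4569, the 24 h arrays 5398 and 5811, and the 30 h arrays 4640 and 5430. The 48 h arrays gave 5421 and 2433, the 72 h arrays 4580 and 5514. The spread within time 0 and within 48 h was as wide as the differences between times, and a moderated F test over the 9 times gave an adjusted p of 0.477. The estimates against time 0 ran from 0.10 at 2 h to 0.82 at 24 h, with an SE of 0.37.

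Gnmt, which uses surplus methyl donor to make sarcosine from glycine, read 3361 and 5428 at time 0 and between 2234 (second 48 h array) and 7145 (second 1 h array) later. Pemt, which makes phosphatidylcholine, read 962 and 1410 at time 0 and between 501 and 1812 later, both of these at 48 h. Neither was called against time 0 at any time, with F test adjusted p of 0.599 and 0.495. Without the first 48 h array both would be called lower at 48 h, by -0.93 and -1.19.

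Ahcy, the enzyme that clears S-adenosylhomocysteine, read 1728 and 3596 at time 0, 5833 and 5795 after 1 h, and 4219 and 5108 after 2 h. Every later array was above the first time 0 array, and all but the second 48 h array, at 2823, were above the second. Its estimates were 1.22 at 1 h (adjusted p = 0.102) and 0.58 to 0.89 at the other times, and it was not called at any. Without the second time 0 array it was called higher after 1, 12, 18 and 72 h (1.74, 1.30, 1.30 and 1.36) and over each phase (1.43, 1.22 and 1.26), and under quantile normalization over 1 to 6 h at 0.43.

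Bhmt, which returns homocysteine to methionine with betaine, read 3174 and 5107 at time 0, 7906 and 8171 after 1 h and 4428 and 4151 after 12 h. The 18 h arrays gave 4616 and 2426, the 72 h arrays 8291 and 8514. The F test over the 9 times called it (adjusted p = 0.0225), while no single time passed, 72 h lying nearest at 1.06 ± 0.31 (adjusted p = 0.0734). At 18 h its estimate was -0.27, and -0.86 under quantile normalization, which called it there.

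Shmt1, the cytosolic enzyme that moves a carbon from serine to folate, fell at 12 and 18 h. It read 810.5 and 996.7 at time 0, 1198 and 1285 after 1 h, 375.5 and 256.3 after 12 h, and 485.1 and 231.7 after 18 h. All 4 arrays of 12 and 18 h were below both time 0 arrays, as were those of 24 h at 699.9 and 431.2. The 30 h arrays gave 799.1 and 957.7, the 48 h arrays 744.9 and 291, and the 72 h arrays 830.4 and 1041. The difference was -1.49 ± 0.34 at 12 h (limma, adjusted p = 0.00657) and -1.38 ± 0.34 at 18 h (0.0135). The first was lost without the second time 0 array (-1.34) or the second 12 h array (-1.22), and the second without the second time 0 array (-1.23) or the second 18 h array (-0.87). Both calls were lost in a fit of only the arrays compared. Its 4 probe sets gave -0.92 to -1.94 at 12 h.

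Cbs, which joins homocysteine to serine on the way to cysteine, fell at the same times. It read 730.9 and 877.6 at time 0, 489.4 and 241.8 after 12 h, 402.5 and 294.3 after 18 h, and 935 and 718.3 after 24 h. The arrays of 12 and 18 h did not overlap with time 0, and those of 24 h lay around it. The difference was -1.18 ± 0.33 at both times (limma, adjusted p = 0.0259 at 12 h and 0.0287 at 18 h). Each call was lost without either time 0 array, the differences being -1.31 and -1.05 at each time, and without the second array of its own time (-0.69 at 12 h, -0.97 at 18 h). Both calls were also lost in a fit of only the arrays compared. The other probe set of Cbs gave -1.33 at 12 h and -1.60 at 18 h.

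Cth, which releases cysteine in the last step of this branch, first read high and then low. It read 1202 and 1658 at time 0, 3703 and 3861 after 1 h, 2629 and 3667 after 2 h, and 2712 and 2744 after 6 h. All 6 of these early arrays were above time 0, yet the estimate at 1 h, 1.41 ± 0.41, was not called (adjusted p = 0.191). The 12 h arrays gave 1801 and 2023, the 18 h arrays 349.7 and 729.7, and the 24 h arrays 1644 and 579.9, so both arrays of 18 h and 1 of 24 h were below time 0, as was the second of 48 h. The 30 h arrays gave 1634 and 2203, the 48 h arrays 1985 and 955.8, and the 72 h arrays 2358 and 3238. The difference at 18 h was -1.45 ± 0.41 (limma, adjusted p = 0.0304). This call was lost without either time 0 array (-1.68 and -1.22) or the first 18 h array (-0.94). It was also lost in a fit of only the arrays compared. By the F test over the 9 times 5 of the 9 genes were called, where 17.7% of all genes were: Nnmt (adjusted p = 2.64e-05), Cth (5.09e-04), Shmt1 (0.00128), Cbs (0.00390) and Bhmt.

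The median change of the 9 genes depended on the scaling, in size over 1 to 6 h and in sign over both later phases. Over 1 to 6 h the median of the 9 genes was 0.57, with 9 of 9 above 0, as deposited and 0.06, with 5 of 9 above 0, after quantile normalization, where the median of all genes was 0 and -0.01. Over 12 to 30 h the medians were 0.19 and -0.22 and over 48 to 72 h 0.44 and -0.10. The rise of Nnmt was of like size both ways, 4.14 and 4.22 over 12 to 30 h. The decreases of Cbs, Shmt1 and Cth at 18 h were -1.32, -1.57 and -1.69 after quantile normalization.

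Of 11 other genes of nicotinamide and NAD metabolism, 1 was raised, 2 were lowered and 8 were not called over 12 to 30 h. Of all genes 2.54% were raised and 2.1% lowered over these times. The median change was -0.23 against 0.00 for all genes. Nampt, which rebuilds NAD from the nicotinamide that Nnmt methylates, read 333 and 282 at time 0, 881 and 497 after 12 h, and 1400 and 1601 after 18 h, a difference of 2.23 at 18 h (limma, adjusted p = 2.48e-05). Aox3, an aldehyde oxidase of the family that oxidises methylated nicotinamide, read 453 and 469 at time 0 and 55.4 and 55.7 at 18 h, a difference of -2.74 (limma, adjusted p = 1.30e-05). At 24 h Nampt was at 246 and 503 and Aox3 at 342 and 169. Naprt, which makes NAD from nicotinic acid, was lowered at 12 h (-1.28, adjusted p = 0.00703), a call lost without the first time 0 array (-1.09) or the second 12 h array (-0.88). Nmrk1, a kinase of nicotinamide riboside, was lowered over 12 to 30 h (-0.76), and that call, like those of Nampt (0.92) and Aox3 (-1.28) over these times, was lost without either time 0 array.

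**Figure D2:**
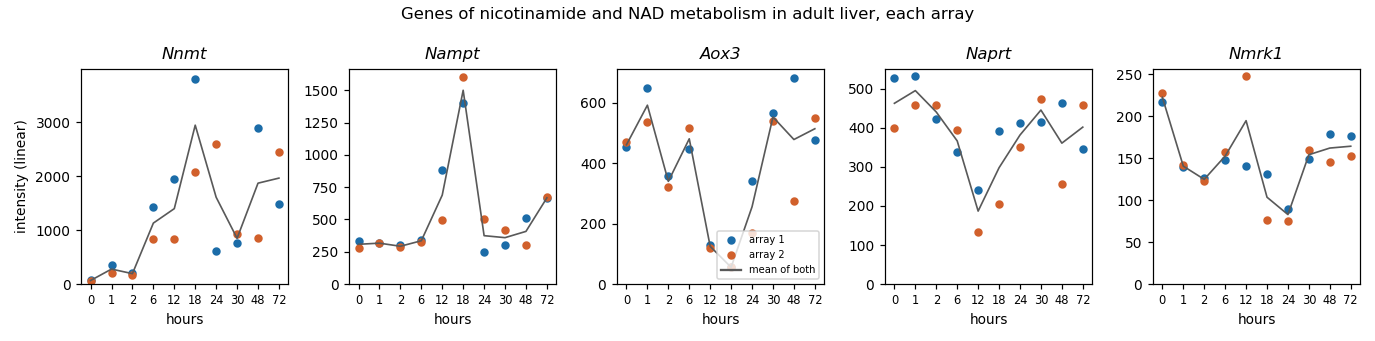
Intensity (linear, y axis) of Nnmt and of 4 other genes of nicotinamide metabolism against hours after hepatectomy, with both arrays of each group as points and their mean as a line. Nampt peaks at 18 h at 1400 and 1601, where Aox3 is lowest at 55.4 and 55.7.

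Of the other genes of methionine use and polyamine synthesis, 15 measured, 2 were raised and 0 lowered over 1 to 6 h. Of all genes 0.693% were raised and 0.253% lowered over these times. Got1, an aspartate aminotransferase, was 1.62 higher (limma, adjusted p = 1.82e-04) and Tat, the first enzyme of tyrosine breakdown, 2.09 higher (0.0107), with Tat at 1099 and 1093 at time 0 and at 5230 and 5489 at 1 h. The call of Tat was lost without either time 0 array (2.09 without either). Sat1, which acetylates spermidine and spermine for export, read 367 and 336 at time 0 and 1314 and 1731 at 12 h, 2.05 higher (limma, adjusted p = 3.65e-05). Odc1, which makes putrescine, was lowered over 48 to 72 h (-0.72, adjusted p = 0.0214), a call lost without the first time 0 array (-0.53) or the first 72 h array (-0.69).

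In the other branches the calls over 12 to 30 h were all decreases, where 2.1% of all genes were lowered and 2.54% raised. Of 12 genes of cysteine and sulfur metabolism 3 were lowered: Ethe1, which oxidises sulfide-derived persulfide (-0.92, adjusted p = 0.00120), Gclc, the catalytic subunit of glutathione synthesis (-0.87), and Csad of taurine synthesis (-1.06). Of 12 genes of betaine and choline metabolism 1 was lowered, Chdh, which makes betaine from choline, at 593 and 577 at time 0 and 208 and 101 at 12 h. Of 16 folate genes 1 was lowered, Mthfd1 (-0.87), which read 542 and 452 at time 0 and 197 and 110 at 18 h. Of 11 small-molecule methyltransferases 2 were lowered, Hnmt, which methylates histamine (-0.97), and Mettl7a1 (-0.72). All but Ethe1 of these 7 calls over 12 to 30 h were lost without 1 or both time 0 arrays; without the second, Gclc was at -0.61 and Mettl7a1 at -0.49.

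In the embryo the enzyme genes were lower than in unoperated adult liver, from nearly silent to mildly reduced. All 9 were lowered against time 0, where 24.6% of all genes were lowered and 30.5% raised. The differences were -5.62 for Gnmt and -5.16 for Mat1a, followed by Pemt (-4.10), Bhmt (-3.10), Cth (-2.60), Cbs (-1.85), Nnmt (-1.70), Shmt1 (-1.02) and Ahcy (-0.64). The SE was 0.23 to 0.45. Differences between genes in this order were not tested. The median change was -2.60 against 0.02 for all genes. As given above, hepatocyte markers fell and erythroid and hepatoblast markers rose in the same samples, and their part in these decreases was not tested.

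Against 48 to 72 h after hepatectomy all 9 were lowered too, where 30.8% of all genes were lowered and 35.3% raised, and Nnmt then had the widest difference, -6.14 ± 0.34 (limma, adjusted p = 9.49e-13). Gnmt was at -5.77, Mat1a at -5.59, Pemt at -4.09, Bhmt at -4.00, Cth at -3.06, Ahcy at -1.38, Cbs at -1.18 and Shmt1 at -0.59. At 16.5 dpc, the last stage, 8 of the 9 were lower than at time 0, where 16.3% of all genes were lowered and 25.7% raised, with Ahcy at -0.66 (adjusted p = 0.0928). At this stage the call of Nnmt was lost without the first time 0 array (-1.48) or either 16.5 dpc array (-1.74 and -1.76), and with a constant of 64 (-0.84). That of Shmt1 was lost without the second time 0 array (-0.99) or the second 16.5 dpc array (-1.05), while Ahcy was called without the first time 0 array (-1.18) and under quantile normalization (-1.30). These comparisons share the embryonic or the time 0 arrays and are no independent support of each other.

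Mat1a rose up to 14.5 dpc while staying far below the adult level, and its 16.5 dpc arrays lay between those of 14.5 dpc. It read 44.3 and 19.1 at 10.5 dpc, 21.2 and 38.7 at 11.5 dpc, 55 and 30.4 at 12.5 dpc, 116.8 and 78.8 at 13.5 dpc, 155.9 and 186.9 at 14.5 dpc, and 176.3 and 183.2 at 16.5 dpc. The first 3 stages overlapped with each other and lay under the lowest array median, and each array of 13.5 dpc or later was above them. Its slope was 0.43 ± 0.05 per day (limma, adjusted p = 2.45e-06), and at 16.5 dpc it was still 16.2-fold below time 0. Over the 16 group means 1436 of 14966 genes had a correlation over 0.9 with it, a pattern that the gap between embryo and adult sets, with Hp, Mfsd4b2, Cp, Phyh and Cyp3a11 the highest.

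Gnmt and Bhmt rose with stage, by 0.59 ± 0.05 a day for Gnmt (adjusted p = 1.72e-08) and 0.59 ± 0.05 a day for Bhmt (1.95e-09). With a constant of 64 or 4 in place of 16 the slope of Gnmt, whose first arrays lie near 0, was 0.35 or 0.79, and that of Bhmt 0.51 or 0.61. Gnmt read -26.9 and 4.7 at 10.5 dpc, 80 and 45.5 at 12.5 dpc, 222.7 and 221 at 14.5 dpc, and 221.6 and 185.9 at 16.5 dpc. Bhmt read 72.9 and 94.1 at 10.5 dpc, 203.1 and 247.7 at 11.5 dpc, 596.9 and 336.6 at 12.5 dpc, and 1178 and 1196 at 14.5 dpc. At 16.5 dpc, with 1136 and 1031, Bhmt was 3.68-fold below time 0, while Gnmt was 19.6-fold below it. The mean of neither gene was higher at 16.5 dpc than at 14.5 dpc.

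Both genes of the branch to cysteine rose with stage, Cth by 0.24 (adjusted p = 0.00423) and Cbs by 0.18 (0.00622) a day. Cth read 87.1 and 127 at 10.5 dpc and 318.8 and 310.4 at 16.5 dpc, and Cbs 127.4 and 151.8 and then 301.1 and 285.1, with both arrays of the last stage above both of the first. At 14.5 dpc Cth read 325.9 and 301.9 and Cbs 264.2 and 308.6, overlapping with 16.5 dpc. The other probe set of Cbs gave a steeper slope, 0.38, and a wider gap to time 0, -3.19 against -1.85. In all, 5 of the 9 genes were raised with stage, where 16.2% of all genes were raised and 11.4% lowered, and by the F test over the 6 stages 3 were called (Bhmt, Gnmt and Mat1a), where 20.8% were. Erythroid markers rose with stage too, 8 of 8, as did 6 of 6 neutrophil and 6 of 8 hepatocyte markers, with 1 hepatocyte marker lowered, and their part in these slopes was not tested.

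Ahcy and Shmt1 had the smallest differences from time 0 and showed no slope past the test. Ahcy lay between 1500 and 1813 on all 12 embryonic arrays, with a slope of -0.01 ± 0.04, and overlapped with the first time 0 array at 1728. Without the second time 0 array its difference from time 0 was -0.11 and not called. Shmt1 lay between 356 and 519.6 in the embryo, below both time 0 arrays and overlapping with the first arrays of 12 and 18 h. Its call against time 0 was lost without the second time 0 array (-0.88), and that against 48 to 72 h without the first 48 h array (-0.26) or the second 72 h array (-0.51).

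Pemt lay between 33.2 and 78 in the embryo, and Nnmt between 0.3 and 22, both without a slope that passed the test (0.12 with adjusted p = 0.135, and 0.01 with 0.964). Pemt was called in the slope under quantile normalization (0.10) and with array weights (0.12). Nnmt lay below time 0 on every embryonic array. Its call against time 0 was lost with a constant of 64 in place of 16 (-0.82) or without the first time 0 array (-1.44), a limit of values this near 0.

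**Figure D3:**
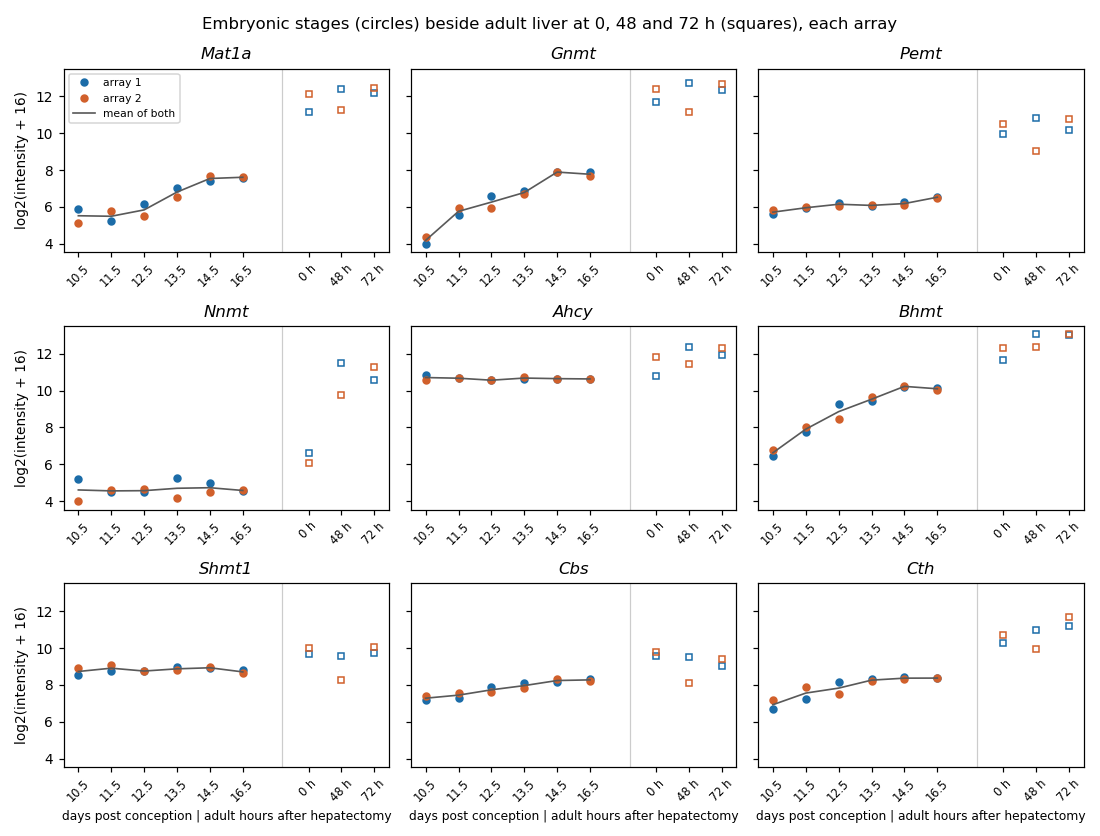
Level on the log2(intensity + 16) scale (y axis) of each gene at the 6 embryonic stages (circles, with the mean of both arrays as a line), beside adult liver at 0, 48 and 72 h (squares). Gnmt, Mat1a and Bhmt climb with stage, Ahcy stays between 1500 and 1813 in linear intensity, and Nnmt stays at the bottom of the scale.

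**Figure D4:**
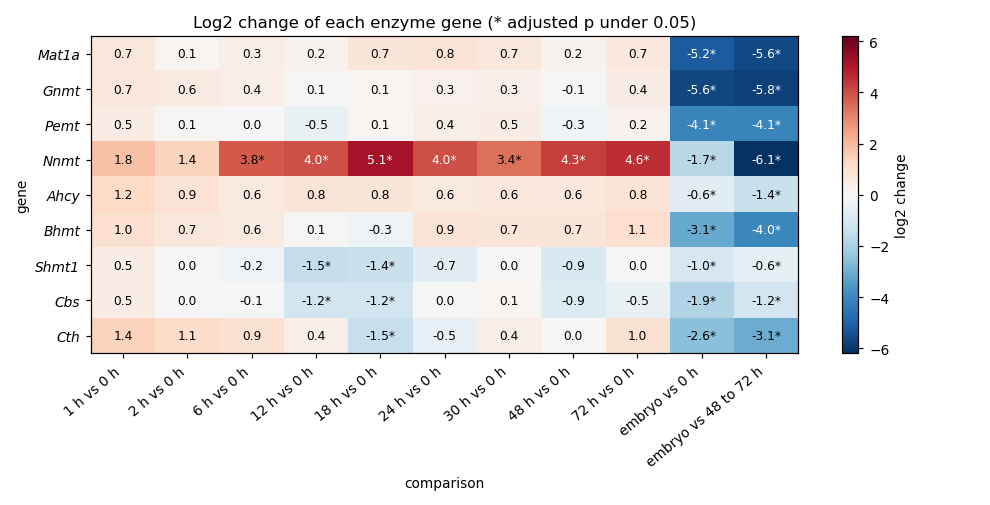
Log2 change of each gene in 11 comparisons, written in each cell and coloured from blue (lower) to red (higher), with a star where the adjusted p was under 0.05. Stars in the adult columns are those of Nnmt from 6 h on and of Shmt1, Cbs and Cth at 12 or 18 h, and every cell of both embryonic columns has one.

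The lists of genes around the cycle are read against the shares of all genes in this comparison, 30.5% raised and 24.6% lowered. Of 15 genes of methionine use and polyamine synthesis 8 were raised and 2 lowered against time 0. Mat2b, the regulatory subunit of the methionine adenosyltransferase of nonhepatic tissue, read 173 and 181 at time 0 and 429 to 525 on all embryonic arrays, 1.35 higher (limma, adjusted p = 2.07e-10). Odc1 was 1.99 higher, Enoph1 of the methionine salvage pathway 2.00 higher, and Mtr, the folate-dependent methionine synthase, 1.03 higher. Tat, between -15.8 and 18.5 on the embryonic arrays, was lowered (-5.90), as was Got1 (-1.57).

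Of 16 folate genes 5 were raised, a share near that of all genes, and 6 were lowered. Raised were the mitochondrial enzymes Mthfd2 (2.68) and Mthfd1l (2.85), from 75 and 82 to 676 and 685 at 16.5 dpc for Mthfd2, and their cytosolic relative Mthfd1 (0.85). Lowered were Aldh1l1, which oxidises formyl-folate to carbon dioxide (-3.90), and Ftcd of histidine breakdown (-2.45). Of 12 betaine and choline genes 9 were lowered and 1 was raised: Chdh (-3.09), Dmgdh (-2.65), Pipox (-2.52), Bhmt2 (-2.59) and Chpt1 (-2.67) were among the former, and the latter was Pcyt1a (0.42), whose call was lost without the second time 0 array (0.36), under quantile normalization (0.22) and with the mean of its probe sets (0.02).

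In the sulfur branch 10 of 12 genes were lowered and 0 raised, among them Sqor, which oxidises sulfide (-4.09), Cdo1, which oxidises cysteine (-3.15), Suox (-2.02) and Gclc (-1.52). Of 11 small-molecule methyltransferases 6 were lowered and 0 raised, among them Mettl7b (-6.72), Inmt (-5.61) and Hnmt (-2.99). Of 11 nicotinamide and NAD genes 7 were lowered, with Aox3 (-4.22), Aox1 (-3.58), Nmrk1 (-2.08) and Naprt (-1.47) among them, and 2 raised, Sirt1 (1.44), an NAD-dependent deacetylase, and Nmnat3 (0.96), whose call was lost with the mean of its probe sets (0.31). The median changes were 0.53 for methionine and polyamine genes, -0.12 for folate, -1.96 for betaine and choline, -1.36 for sulfur, -0.46 for methyltransferases and -0.63 for NAD, against 0.02 for all genes.

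**Figure D5:**
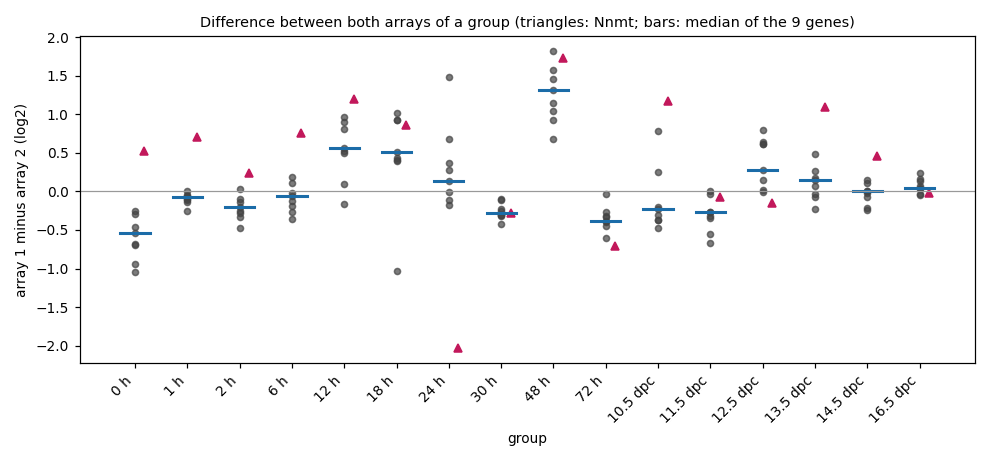
Difference between both arrays of each group (first minus second, log2(intensity + 16), y axis) for the 9 genes, with Nnmt as triangles and the median of the 9 as a bar. The widest medians are those of 48 h, at 1.31, 12 h, at 0.57, and time 0, at -0.54.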

How the data were processed

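Total RNA, 6 microg per array extracted with Trizol per the labels, was hybridised to Affymetrix Mouse Genome 430 2.0 arrays. The deposited values are linear intensities per probe set, of which 2.54% to 4.02% per array are below 0. The software and scaling used by the authors were not given in the sources used here. Values below 0 were set to 0, 16 was added and log2 taken. Of 45101 probe sets 34958 name 1 gene, 932 several and 9211 none, giving 18194 genes. With R 4.3.3 and limma 3.58.1, 1 mean per group was fitted on all 32 arrays (lmFit, eBayes with a trend, 16 residual degrees of freedom), with Benjamini-Hochberg adjustment over all genes within a comparison and a threshold of 0.05. The code was tested on simulated data. Replicate numbers were not used to pair the samples. Named are the enzyme genes, the 5 genes most like Nnmt and Mat1a, and 35 genes of the pathway lists. These 35 were picked from 48 that ranked among the 4 of smallest p in a list. The ranking was made among called genes, within each comparison and each direction of change. Genes, lists and alternatives were chosen with earlier results of these data known. With 2 arrays per group, the number of arrays limits the precision.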

Additional observations from a re-analysis of the deposited data

How the results depend on the processing

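Values and calls of the 9 enzyme genes were recomputed under 12 other settings and with each array left out, and no called value changed sign. Over 1 to 6 h the count of 1 called gene became 0 with a constant of 4, 2 under quantile normalization and 2 with array weights, and 0 to 1 with 1 array left out (0 without the first time 0 array). Over 12 to 30 h the count of 1 became 2 with a constant of 64, under quantile normalization, with the mean of probe sets, with dim genes filtered and with array weights, 3 without the 4 arrays of high 3′ to 5′ ratio, and 1 to 2 with 1 array left out. Over 48 to 72 h the count of 1 became 3 without those 4 arrays, 0 in a fit of only the arrays compared, and 1 to 3 with 1 array left out. The F test over the 9 times called 3 in place of 5 in a fit of only the arrays compared, and 4 to 8 with 1 array left out (8 without the first 48 h array). The F test over the 6 stages called 5 in place of 3 with array weights, 6 in a fit of only the arrays compared, and 3 to 4 with 1 array left out. Over the single times, 12 of 81 values were called, 2 in a fit of only the arrays compared and 9 to 18 with 1 array left out. Counts for the embryo stayed within 1.5 times, with 1 array left out 7 to 9 against time 0, 8 to 9 against 48 to 72 h, 5 to 5 for the slope and 6 to 8 at 16.5 dpc. The slope gained Pemt, 6 genes in all, under quantile normalization, with array weights and in a fit of only the arrays compared, and 16.5 dpc gained Ahcy, 9 in all, under quantile normalization, with array weights and without those 4 arrays. Of 954 values with 1 array left out, 29 lost and 18 gained a call. The cause of these shifts was not tested. With the replicate number as a block 0 of 144 calls changed. The counts were then 1, 1 and 1 for the phases, 9 and 9 for the embryo, 5 for the slope and 8 at 16.5 dpc. The F tests called 5 and 3, and the single times 12. Same-numbered arrays correlated at -0.359 to 0.555 (median -0.006) over 120 group pairs, 17 of them over 0.1. These values cannot tell whether some same-numbered arrays were handled together. Other settings were not run for Mat2a, which is not analysed here. Choosing the probe set by linear mean was added after seeing the data and changed no call. Genes near background, such as Nnmt in the embryo, are limited by signal over background.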
